A study of Mus musculus with 6 samples.

Results

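The core circadian clock genes described here are 9 of the 55536 genes measured in mouse liver: the period genes Per1, Per2 and Per3, the cryptochrome genes Cry1 and Cry2, the repressor gene Ciart, and the activator genes Arntl (which encodes BMAL1), Clock and Npas2. They were taken by gene symbol as the activators and repressors of the core loop. The set was selected on the difference in FPKM between the 2 groups, which was known when it was proposed, so its group values are given as a description and no p-value is attached to them. All 9 were found once each in the annotation, and all 9 were among the 13299 genes with enough reads to be tested.

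The samples were livers of male C57BL/6 mice, an inbred laboratory strain, aged 6 weeks when dosing began. The treated mice received polystyrene microplastics (PS-MP) by mouth at 0.4 mg per day, 2 dosings a week for 8 weeks, and the control mice received water on the same schedule. RNA sequencing gave 3 PS-MP and 3 water libraries. The labels do not give the hour of collection, the feeding state or whether the libraries within a group stem from different animals, so the errors below measure the spread between these libraries, which may be technical.

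The clock of liver cells is a delayed negative feedback loop. BMAL1 pairs with CLOCK, or with its relative NPAS2, and the pair binds E-box sequences and turns on the period, cryptochrome and Ciart genes. The PER and CRY proteins enter the nucleus as a complex and block that pair, and CIART (also called CHRONO) represses it too. A second loop joins this one, in which REV-ERB proteins repress and ROR proteins activate Arntl and Npas2. In liver the PER and Ciart transcripts peak at a time of day roughly opposed to that of Arntl and Npas2. D-boxes, bound by the DBP, TEF and HLF factors and by the repressor NFIL3, are a further control element of the period genes.

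Promoter sequences are shown for the 4 genes that hold an E-box or a D-box match in the window searched, the kinds of element named above. The windows are those of RefSeq on GRCm38.p6, 250 bases before to 50 after a transcript start, and 12 windows matched 8 of the 9 genes. Per2 had no window and was not searched. The stretches below lie before the RefSeq start and leave out bases that GENCODE M21 puts in an exon of the gene. They are written in the direction of transcription, with E-boxes (CACGTG) and D-box matches (TTANGTAA) in capitals. The Ciart stretch is chr3:95882252-95882478, minus strand, that of Per3 chr4:151044666-151044915, minus strand, that of Per1 chr11:69098699-69098947, plus strand, and that of Cry1 chr10:85185065-85185304, minus strand.
Ciart: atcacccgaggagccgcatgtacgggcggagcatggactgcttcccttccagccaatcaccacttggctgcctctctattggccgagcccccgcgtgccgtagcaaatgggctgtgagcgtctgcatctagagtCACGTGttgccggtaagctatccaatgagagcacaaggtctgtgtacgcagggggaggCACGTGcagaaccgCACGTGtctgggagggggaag
Per3: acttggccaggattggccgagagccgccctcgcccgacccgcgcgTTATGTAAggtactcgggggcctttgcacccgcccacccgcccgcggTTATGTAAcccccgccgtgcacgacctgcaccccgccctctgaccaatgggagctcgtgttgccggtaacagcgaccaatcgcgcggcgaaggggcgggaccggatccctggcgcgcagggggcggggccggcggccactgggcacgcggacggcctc
Per1: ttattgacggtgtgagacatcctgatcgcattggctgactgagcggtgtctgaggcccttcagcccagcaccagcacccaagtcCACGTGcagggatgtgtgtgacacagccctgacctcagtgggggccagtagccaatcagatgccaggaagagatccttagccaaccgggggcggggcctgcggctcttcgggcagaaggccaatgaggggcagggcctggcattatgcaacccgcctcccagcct
Cry1: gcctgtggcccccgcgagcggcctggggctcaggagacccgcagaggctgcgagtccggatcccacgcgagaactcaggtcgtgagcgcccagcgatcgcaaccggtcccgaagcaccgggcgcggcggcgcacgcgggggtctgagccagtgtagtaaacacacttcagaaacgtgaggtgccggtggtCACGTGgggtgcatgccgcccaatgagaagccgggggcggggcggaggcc

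Ciart held 3 E-boxes, with first bases at positions -116, -58 and -44 from the transcript start, where 7.15% of all 32851 mouse windows of this length held at least 1 and 0.0883% held at least 3. Per1, in the first of its 2 windows, and Cry1 held 1 each, at positions -166 and -60. Per3 held no E-box in its window but 2 D-box matches, at positions -205 and -158. At least 1 D-box match was found in 2.32% of all windows and at least 2 in 0.0822%. The E-box variant CACGTT was found once in Cry1 and once in Cry2, against 4.68% of all windows. The cyclic AMP element core TGACG was found once in Cry1, once in Cry2 and once in each Per1 window, against 20.8% of all windows. The ROR element core AGGTCA was found in the first Per1 window, 1 of 2 Arntl windows and 1 of 3 Clock windows, against 16.3% of all windows. GGGTCA was found in no window of these genes, against 13.7% of all windows. Npas2 held no match to any motif searched. All motifs were searched on both strands, and the E-box letters read the same on both. A match is a description of letters and not a site.

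**Figure D1:**
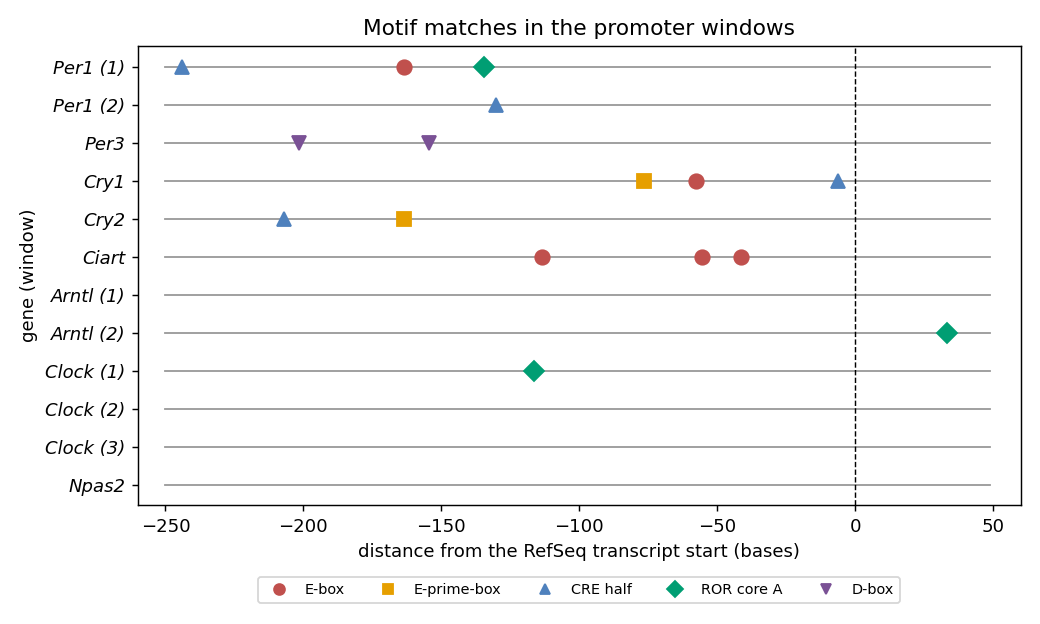
Motif matches in the 12 RefSeq promoter windows of 8 clock genes. The horizontal axis is the distance in bases from the transcript start (dashed line), each grey line is 1 window and each symbol is 1 match. Ciart carries 3 E-boxes, Per3 carries 2 D-box matches, and Npas2 carries none of the motifs.

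Totals ran from 13082210 to 15938284 reads in PS-MP and from 14520402 to 16948343 in water. All 8 hepatocyte markers were at 167 FPKM or more in every library. Of 10 forebrain neuron markers, all 10 had a higher mean in PS-MP: their sum in CPM (reads scaled to the library total) was 31.0 in PS-MP replicate 1, 18.9 in replicate 2 and 199 in replicate 3, and no water library exceeded 11.3, where Gad1, Stmn2 and Nefl were at 0 in all 3 libraries. Of 6 oligodendrocyte and astrocyte markers, also all higher in mean, the sum was 13.4 to 58.5 CPM in PS-MP and 14.5 to 21.5 CPM in water, with Mobp and Mog at 0 in all water libraries. The brown fat markers Ucp1 and Cidea had reads in PS-MP replicate 3 and water replicates 1 and 3, and were at 0 in the other 3 libraries. The sum of the 5 brown fat markers, mostly Elovl3, which liver also expresses, was 125 to 174 CPM in PS-MP and 201 to 345 CPM in water. Summed markers of Kupffer cells (163 to 184 CPM in PS-MP and 147 to 165 in water), sinusoidal endothelium (176 to 209 and 178 to 215) and bile ducts (24.4 to 31.5 and 22.6 to 32.5) overlapped. The mean was higher in PS-MP for 5 of 5 Kupffer cell markers and 0 of 5 brown fat markers. It was higher for 2 of 5 in each of the endothelial and bile duct lists. Of the marker genes tested, 0 passed at an adjusted p under 0.05 in limma-trend, a linear model fitted across all genes.

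Among the repressors, the PER genes, Cry2 and Ciart were higher in PS-MP livers, with no overlap between the groups, whereas Cry1 overlapped. Among the activators, Arntl and Npas2 were lower in PS-MP livers with no overlap, whereas Clock overlapped. The differences in mean level ran from 1.37 times higher for Per1 to 6.50 times higher for Ciart, and Npas2 was 4.87 times lower. Levels are in FPKM, reads scaled by exon length and library total, and log2 fold changes are PS-MP over water on the scale of FPKM + 0.5 with the standard error (SE) of the limma-trend fit over all 13299 genes. In bulk liver, fewer cells that express a gene and less RNA per cell cannot be told apart.

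Per3 (chromosome 4, 151003652 to 151044665, minus strand) encodes the PER protein that is least needed for rhythms in mice. Its level was 2.31, 2.67 and 3.82 FPKM in PS-MP replicates 1, 2 and 3, and 0.487, 0.706 and 0.545 FPKM in water replicates 1, 2 and 3. Every PS-MP value lay above every water value, and the lowest PS-MP value was more than 3 times the highest water value. The log2 fold change was 1.65 ± 0.17 (SE, n = 3 each). On the recovered reads, with limma-voom, it was 2.31, since the pseudocount holds back the change of a gene at this level.

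Per2 (chromosome 1, 91415982 to 91459324, minus strand) encodes a PER protein that is essential for a sustained rhythm. Its level was 4.14, 4.78 and 6.39 FPKM in the PS-MP libraries and 2.22, 3.48 and 2.78 FPKM in the water libraries. The groups did not overlap, but PS-MP replicate 1 and water replicate 2 lay close together. The log2 fold change was 0.75 ± 0.18 (SE, n = 3 each). Per1 (chromosome 11, 69095217 to 69109960, plus strand) is the PER gene that also answers quickly to hormones and cyclic AMP. Its level was 8.82, 9.23 and 9.74 FPKM in PS-MP and 5.74, 7.69 and 6.87 FPKM in water. PS-MP values were tightly grouped above the water values, and the log2 fold change of 0.43 ± 0.11 (SE, n = 3 each) was the smallest of the 3 PER genes.

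Cry2 (chromosome 2, 92403646 to 92434043, minus strand) and Cry1 (chromosome 10, 85131700 to 85185064, minus strand) encode the cryptochromes, which repress BMAL1 and CLOCK and lengthen or shorten the period when lost. Cry2 was at 6.25, 6.32 and 8.86 FPKM in PS-MP and 3.80, 4.85 and 4.16 FPKM in water. The groups were apart, with PS-MP replicate 3 well above the others, and the log2 fold change was 0.67 ± 0.15 (SE, n = 3 each). An opposite-strand transcript, D930015M05Rik, shares 295 of the 6320 exon bases of Cry2 and had at most 33 reads in a library. Cry1 was at 2.33, 2.14 and 2.39 FPKM in PS-MP and 2.92, 2.72 and 2.02 FPKM in water. Its PS-MP values all lay inside the range of the water values, and its log2 fold change was -0.12 ± 0.13 (SE, n = 3 each). It was -0.03 without water replicate 1, -0.08 without water replicate 2 and -0.25 without water replicate 3. In mouse liver, Cry1 is known to peak later than the PER genes and Cry2.

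Ciart (chromosome 3, 95878503 to 95882251, minus strand) showed the widest range of the 9 genes. It was at 12.7, 12.7 and 19.6 FPKM in PS-MP and 0.757, 4.28 and 1.89 FPKM in water. The lowest water library had 26 reads and the highest 164, and in FPKM the water libraries differed among themselves 5.65 times. All PS-MP values lay above them, with a log2 fold change of 2.65 ± 0.43 (SE, n = 3 each).

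Arntl (chromosome 7, 113207465 to 113314126, plus strand) was the better expressed of the 2 activator genes that were lower in PS-MP. Its level was 1.28, 0.692 and 1.24 FPKM in PS-MP and 3.20, 2.78 and 3.41 FPKM in water. The groups were well apart, and PS-MP replicate 2 was the lowest library. The log2 fold change was -1.23 ± 0.17 (SE, n = 3 each), and the mean FPKM was 2.92 times lower in PS-MP.

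Npas2 (chromosome 1, 39193731 to 39363236, plus strand), the relative of Clock that can stand in for it, was the least expressed of the 9 in PS-MP. It was at 0.0798, 0.157 and 0.280 FPKM in PS-MP and 1.03, 0.579 and 0.906 FPKM in water. These levels rest on 5, 12 and 20 reads in PS-MP and 75, 47 and 63 reads in water. The exact 95% Poisson interval of the 5 reads runs from 1.62 to 11.7 and that of the 47 reads in the lowest water library from 34.5 to 62.5, for counting error only. The log2 fold change was -0.99 ± 0.17 (SE, n = 3 each) with a pseudocount of 0.5, -1.82 with 0.1, -0.64 with 1 and -2.31 with limma-voom, so its size depends on the scale. PS-MP replicate 3, which held most of the brain transcripts given above, had the highest Npas2 value of its group. NPAS2 is known as the forebrain partner of BMAL1. Without that library the Npas2 log2 fold change was -1.10, and the part of those transcripts in the level of replicate 3 was not tested.

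Clock (chromosome 5, 76209868 to 76304792, minus strand), whose transcript is known to vary little over the day in liver, was at 5.89, 4.60 and 5.10 FPKM in PS-MP and 5.92, 5.36 and 6.44 FPKM in water. The groups overlapped, and the log2 fold change was -0.17 ± 0.11 (SE, n = 3 each). It was -0.10 without PS-MP replicate 2 and -0.11 without water replicate 3.

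**Figure D2:**
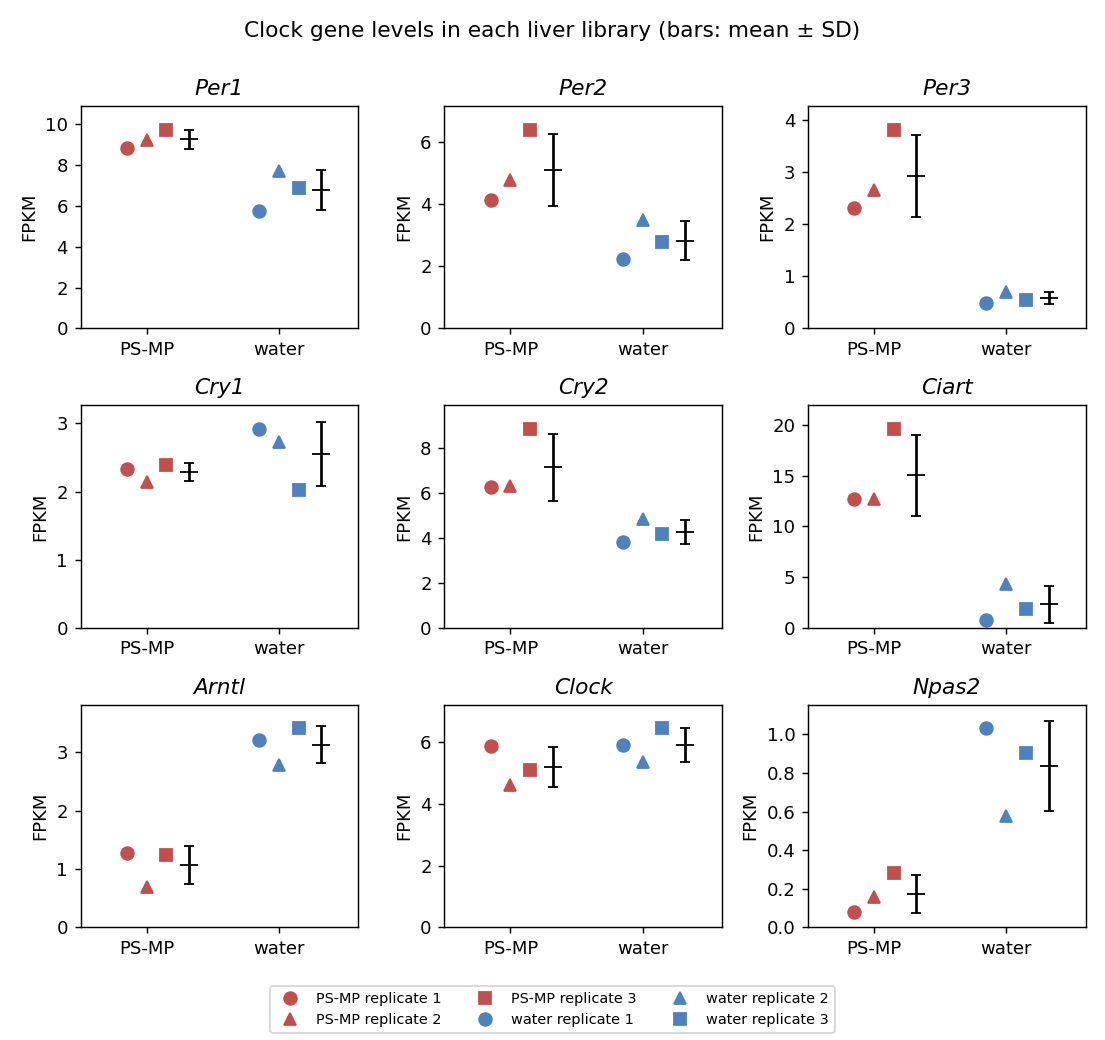
Levels of the 9 clock genes in each liver library, in FPKM, with PS-MP livers on the left and water livers on the right of each panel. Each symbol is 1 library and each bar is the mean ± SD of 3 libraries. Per1, Per2, Per3, Cry2 and Ciart lie higher and Arntl and Npas2 lower in PS-MP with no overlap, while Cry1 and Clock overlap.

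The PS-MP and water libraries did not overlap in 7 of the 9 genes, 5 higher and 2 lower in PS-MP. Over all genes tested the share was 19.2% (11.1% higher and 8.12% lower). As a description only, 1 of the 9 genes lay past an adjusted p under 0.05 in limma-trend on the higher side (Per3) and 1 on the lower side (Arntl), where 0.489% of all genes passed, 0.241% higher and 0.248% lower. Because the genes were chosen with this contrast in view, the counts in this paragraph are no test of them and nothing is read from them. With limma-voom 4 of the 9 passed (Per3, Ciart, Arntl and Npas2), where 0.985% of all genes did. With a library left out, the count passing in limma-trend was 1 without PS-MP replicate 1 (Per3), 0 without PS-MP replicate 2, 1 without PS-MP replicate 3 (Per3), 0 without water replicate 1, 2 without water replicate 2 (Per3 and Ciart) and 0 without water replicate 3. Arntl was past the threshold in none of these 6 fits and Per3 in 3 of them. The median log2 fold change of the 9 genes was 0.43 and the median of its size 0.75, against 0.01 and 0.11 over all genes tested.

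**Figure D3:**
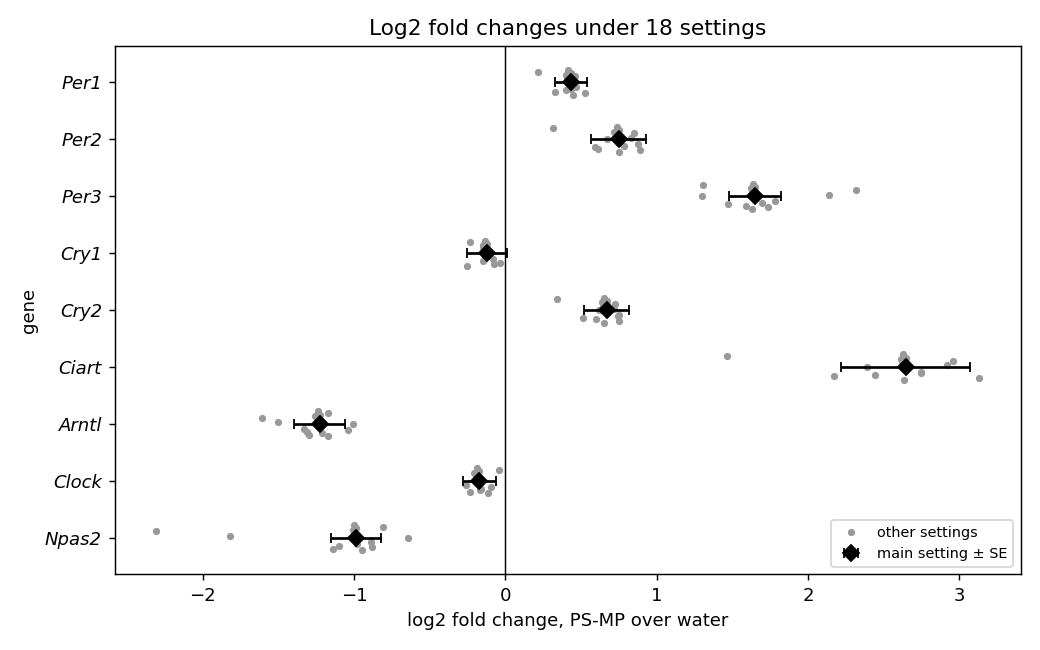
Log2 fold changes of the 9 clock genes, PS-MP over water. Diamonds with bars are the limma-trend estimates ± SE with all 6 libraries, and grey dots are the 17 other settings. Each gene keeps its side of 0 in all settings drawn, which for genes whose groups do not overlap is fixed when only the pseudocount, the low-count rule or the libraries change.

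Ratios between 2 of the genes within a library do not depend on how libraries are scaled. The FPKM ratio of Per2 to Arntl was 3.23, 6.90 and 5.16 in PS-MP and 0.691, 1.25 and 0.815 in water. Arntl was thus below Per2 in every PS-MP library and above it in 2 of the 3 water libraries. The ratio of Ciart to Arntl was 9.93, 18.4 and 15.8 in PS-MP and 0.236, 1.54 and 0.555 in water, and the highest water library was again replicate 2. The ratio of Clock to Arntl was 4.60, 6.64 and 4.12 in PS-MP, against values of 1.85, 1.93 and 1.89 in water that hardly differed.

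The balance inside each gene family also differed between the groups. Per2 was 1.79, 1.79 and 1.67 times Per3 in PS-MP, and 4.55, 4.92 and 5.09 times Per3 in water. Within each group this ratio was nearly constant although both genes varied between libraries. Of the summed FPKM of the 3 PER genes, Per3 made up 15.1%, 16.0% and 19.2% in PS-MP and 5.76%, 5.95% and 5.34% in water, and Per1 was the largest share in all 6 libraries. Of the summed FPKM of the cryptochromes, Cry1 made up 27.2%, 25.3% and 21.2% in PS-MP and 43.4%, 36.0% and 32.7% in water, so that Cry2 was the more abundant in every library. Of Clock and Npas2 together, Npas2 made up 1.34%, 3.30% and 5.20% in PS-MP and 14.8%, 9.75% and 12.3% in water. These shares are descriptions and carry no test.

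By mean FPKM, the order in PS-MP was Ciart, Per1, Cry2, Clock, Per2, Per3, Cry1, Arntl and Npas2. The ranges over libraries overlapped between the neighbours Per1 and Cry2, Clock and Per2, and Per3 and Cry1, and were apart between the other neighbours. In water the order was Per1, Clock, Cry2, Arntl, Per2, Cry1, Ciart, Npas2 and Per3. There the ranges were apart only between Clock and Cry2 and between Cry2 and Arntl. Ciart thus stood first in PS-MP and seventh in water, at a mean FPKM 6.50 times higher in PS-MP.

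Libraries of the same group also differed, and this spread enters the SE of each log2 fold change. In PS-MP, replicate 3 was the highest library for 7 of the 9 genes, among them Per1, Per2, Per3, Cry2 and Ciart, and replicate 1 was the lowest for these 5. In water, replicate 2 was the highest for the same 5 genes and replicate 1 the lowest, while Arntl, Clock and Npas2 were lowest in replicate 2. The within-group SD of log2(FPKM + 0.5) was 0.72 for Ciart, above that of 99.4% of all genes tested, and 0.28 for Per2, above that of 90.2%. It was 0.25 for Per3, 0.25 for Arntl, 0.24 for Npas2 and 0.22 for Cry2, above that of 81.2% to 86.3% of all genes. Clock (0.14), Per1 (0.15) and Cry1 (0.17) lay between the percentiles 56.4 and 68.1. Over the 9 genes the median SD was 0.24, against 0.13 over all genes tested.

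**Figure D4:**
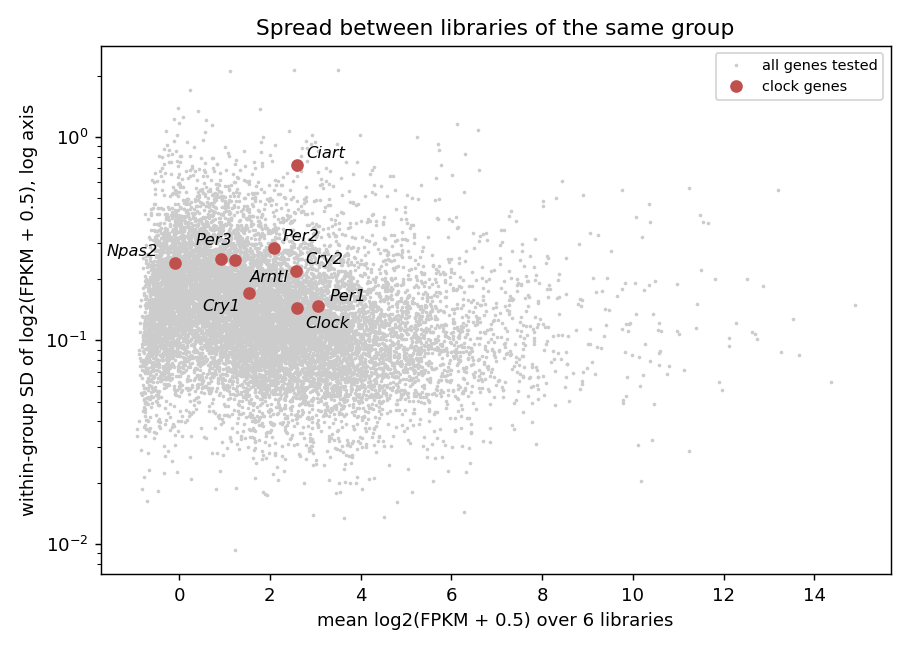
Spread between libraries of the same group for each of the 13299 genes tested. The horizontal axis is the mean log2(FPKM + 0.5) over 6 libraries, the vertical axis (log scale) the within-group SD, grey dots are all genes and red dots the 9 clock genes. Ciart stands near the top of the cloud, whereas Clock, Per1 and Cry1 lie in its middle.

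The genes with the nearest profiles were sought for each of the 4 clock genes with an SD of at least 0.5 over the 6 libraries, by the root mean square distance between centred log2 values. For Ciart they were Dbp, a clock output factor (distance 0.22), the deubiquitinase Usp2 (0.27) and Upp2, a uridine phosphorylase (0.62). For Per3 they were Upp2 (0.16), Cyp2a5, a cytochrome P450 (0.17), and Id1, an inhibitor of bHLH factors (0.22). For Arntl they were Clpx, part of a mitochondrial protease (0.11), Cdkn1a, the gene of the cyclin-dependent kinase inhibitor p21 (0.20), and Abtb2 (0.21). For Npas2 they were the chemokine-scavenging receptor gene Ackr2 (0.09), Fam89a (0.10) and the choline kinase gene Chka (0.12). All distances are on the scale of log2(FPKM + 0.5) over the same 6 libraries. The values were centred over both groups, so the group difference on which the clock genes were chosen enters each distance. Genes with a like difference between the groups therefore come out as near, and shared regulation was not tested.

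The other genes of the clock were taken from 6 lists with 66 genes, of which 65 were tested. The lists were chosen with earlier results of these data known. The counts and p-values given for them here and below are therefore a description and no test of the lists. At an adjusted p under 0.05 in limma-trend over all genes, 6 rose and 0 fell, where 0.241% of all genes were higher and 0.248% lower; 24 had an unadjusted p under 0.05, where 13.1% of all genes did, and limma-voom called 9. The median log2 fold change was 0.07, against 0.01 over all genes. The calls depended on single libraries. Without PS-MP replicate 1, 2 or 3 the count was 2, 1 or 1, and without water replicate 1, 2 or 3 it was 1, 4 (Usp2 among them) or 0.

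In the second loop, 1 of 6 tested genes rose, Nr1d2, which encodes REV-ERB beta. It averaged 23.1 ± 0.825 FPKM in PS-MP and 13.4 ± 1.33 in water (SD, n = 3 each), a log2 fold change of 0.76 ± 0.08 (SE; adjusted p = 0.0243 by limma). Nr1d1, which encodes REV-ERB alpha, overlapped between the groups at 21.1 ± 2.26 FPKM in PS-MP and 22.6 ± 3.65 in water (SD, n = 3 each). Bhlhe41 and Bhlhe40, which encode the E-box repressors DEC2 and DEC1, stood 0.70 and 0.60 higher on the log2 scale (adjusted p = 0.12 and 0.195 by limma). Bhlhe41 averaged only 0.485 FPKM in PS-MP and 0.102 in water, a ratio of 4.77, so the pseudocount holds back its change. Bhlhe40 averaged 11.5 and 7.60 FPKM, a ratio of 1.52. Rorb had too few reads to be tested. The median of the 6 was 0.57.

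Of the 4 genes of the D-box factors, 2 rose. Dbp averaged 12.6 ± 3.98 FPKM in PS-MP and 1.99 ± 1.16 in water (SD, n = 3 each), with a log2 fold change of 2.45 ± 0.33 (SE; adjusted p = 0.0366 by limma), and it overlaps Sphk2 on the other strand. Dbp did not pass with robust empirical Bayes. Tef had a log2 fold change of 1.04 ± 0.15 (SE; adjusted p = 0.0386 by limma). Nfil3, the D-box repressor, had -0.92 and Hlf 0.38, with adjusted p of 0.0909 and 0.164 by limma. Without PS-MP replicate 3 the adjusted p by limma was 0.0617 for Dbp, 0.0576 for Tef and 0.0553 for Nr1d2, and their log2 fold changes were 2.22, 0.90 and 0.73.

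Kinases, phosphatases and ubiquitin enzymes that act on PER and CRY proteins gave 0 calls among 21 tested in limma-trend, and limma-voom called 1, Usp2. Of the 21, 3 had an unadjusted p under 0.05 in limma-trend, where 13.1% of all genes did. The median log2 fold change of the 21 was 0.05. Usp2, which removes ubiquitin from clock proteins and is itself rhythmic in liver, stood apart within the list. It was at 8.38, 9.95 and 12.9 FPKM in PS-MP and 0.929, 3.82 and 1.24 FPKM in water, a log2 fold change of 2.28 ± 0.38 (SE, n = 3 each; adjusted p = 0.0616 by limma). The other 20 had log2 fold changes between -0.21 for Csnk2b, a subunit of casein kinase 2, and 0.36 for Fbxl21, a ubiquitin ligase subunit for CRY, with adjusted p of 0.332 and 0.347 by limma. The casein kinase 1 genes Csnk1d, Csnk1e and Csnk1a1 had -0.16, 0.11 and 0.04.

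Chromatin and complex partners of the clock proteins gave 0 calls among 16 in limma-trend, and limma-voom called 0. Of the 16, 1 had an unadjusted p under 0.05 in limma-trend, where 13.1% of all genes did. The median log2 fold change of the 16 was 0.01. The deacetylase gene Sirt1 had 0.20 and the helicase gene Ddx5 0.13, with adjusted p of 0.457 and 0.488 by limma. Genes of input pathways, through which hormones, cyclic AMP and heat reach the PER genes, gave 0 calls among 10, and limma-voom called 0. Of the 10, 4 had an unadjusted p under 0.05 in limma-trend, against the same share of 13.1%. The values of these genes went both ways. The glucocorticoid receptor gene Nr3c1 had 0.38 and its target Fkbp5 0.73, whereas Tsc22d3, another of its targets, had -0.57, with adjusted p of 0.108, 0.142 and 0.211 by limma.

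Of the 8 rhythmic liver outputs, 3 rose and 0 fell. Alas1, the first enzyme of haem synthesis, had a log2 fold change of 1.73 ± 0.13 (SE; adjusted p = 0.00831 by limma), and it kept its call in each fit with a library left out except the one without water replicate 3, in which no gene passed. Por, the electron donor of microsomal P450 enzymes, had 0.60 ± 0.08 (SE; adjusted p = 0.0358 by limma). Nampt, the rate-limiting enzyme of NAD salvage and a known target of BMAL1 and CLOCK, had 0.51 ± 0.08 (SE; adjusted p = 0.0487 by limma); it did not pass under any of the 3 other scalings. Of the other 5, 4 lay above and Rgs16 lay below water in all 3 PS-MP libraries. Over all genes tested, 11.1% lay above and 8.12% below in this way. Over the 8 the median was 0.67.

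**Figure D5:**
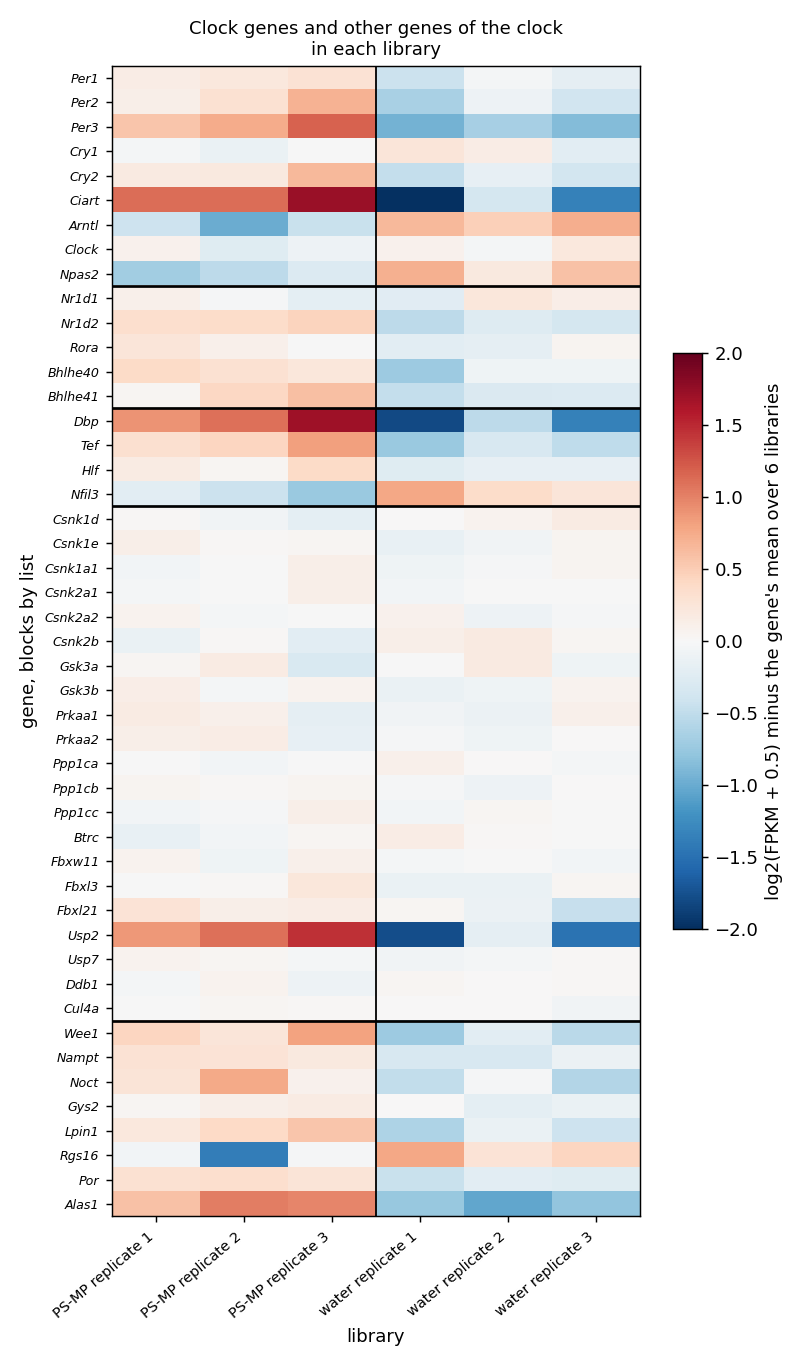
The 9 clock genes (top block), then genes of the second loop, the D-box factors, the enzymes acting on PER and CRY, and the rhythmic liver outputs, in each library. Colour is log2(FPKM + 0.5) minus the mean of the gene over 6 libraries. Ciart, Dbp and Usp2 have the strongest contrast, with water replicate 2 the palest water library in all 3, while the kinases and phosphatases are nearly white.

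Since PS-MP replicate 3 stands apart by its brain transcripts, the clock genes were set without it. The log2 fold changes were then 0.40 for Per1, 0.59 for Per2, 1.47 for Per3, -0.15 for Cry1, 0.51 for Cry2, 2.44 for Ciart, -1.31 for Arntl, -0.16 for Clock and -1.10 for Npas2, within 1 SE of those with all libraries except for Per3 and Cry2, which moved by slightly more than 1 SE. With the 3 libraries that hold Ucp1 and Cidea left out, water replicate 2 is the lone water library and is assumed to vary like the PS-MP libraries. The log2 fold changes were then 0.22 for Per1, 0.32 for Per2, 1.31 for Per3, -0.24 for Cry1, 0.34 for Cry2, 1.47 for Ciart, -1.17 for Arntl, -0.04 for Clock and -0.81 for Npas2, and 0 genes passed. Those of Per1, Per2, Cry2, Ciart and Clock were more than 1.5 times smaller in size than with all libraries, and that of Cry1 was more than 1.5 times larger.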

How the data were processed

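Liver RNA of 3 PS-MP and 3 water libraries was measured by RNA sequencing. The authors deposited FPKM, 1 value per gene and library. The tools, per the submitters' processing notes, were CASAVA, FastQC, MultiQC, Trimmomatic 0.38, HISAT2 2.1.0, featureCounts 1.6.0 and DESeq2 1.22.1. A human build, GRCh38, stands in those notes, but the 55536 identifiers all belong to mouse GENCODE M21 on GRCm38, which gave symbols, coordinates and exon lengths. The strand setting of the counting is not given in the sources used.

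FPKM times exon length gave whole reads within 0.001 for 100.0% of values above 0 in every library. These reads served for depth, CPM, the low-count rule (3 libraries with 0.66 CPM or more, which is 10 reads at the median depth, and 15 reads in all) and limma-voom. The test was limma-trend (limma 3.58.1, R 4.3.3) on log2(FPKM + 0.5), fitted on the group alone, with Benjamini-Hochberg adjustment over 13299 genes at 0.05. It was tested on simulated data. Where an adjusted p is printed, it comes from this fit, or from the same fit without a library where that is said. Poisson intervals of reads hold for counting error alone.

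The 9 clock genes, the 6 lists and the markers were chosen with earlier results of these data known. Named genes are all 9; in each list the genes that passed, otherwise the 3 with the smallest p; and the 3 nearest profiles of each clock gene with an SD of at least 0.5, among genes averaging 1 CPM or more, without predicted gene models. Genes named beside these (Nr1d1, Bhlhe40, Bhlhe41, Rorb, Nfil3, Hlf, Csnk1d, Csnk1e, Csnk1a1, Rgs16 and the markers at 0) were chosen after their values were seen. Alternatives were the pseudocount, the low-count rule, scaling, limma-voom, robust empirical Bayes, a replicate block and leaving out each library; leaving out the libraries with brown fat transcripts was added after seeing the data. Promoter windows were those of RefSeq on GRCm38.p6. Protein sequences were not used here, and some listed genes are not reported here.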

Additional observations from a re-analysis of the deposited data

Results flagged for a closer look

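The genes below had too few reads to pass the low-count rule, so the report's comparisons do not use them, and their reads summed over the PS-MP libraries lay above the water level, with exact 95% Poisson intervals that did not overlap. Rorb, the ROR gene of brain and retina in the second loop of the clock, had 32 reads in PS-MP (1, 2 and 29 in replicates 1, 2 and 3) and 1 read in water. The other 5 are markers of brain cells: Slc17a7 had 210 reads in PS-MP and 2 in water, Gad1 87 and 0, Stmn2 69 and 0, Nefl 94 and 0, and Mobp 126 and 0. In all 6 genes PS-MP replicate 3 held most of the reads.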

How the results depend on the processing

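Each of the 9 clock genes kept the sign of its log2 fold change in all 17 alternatives; for the 7 whose groups do not overlap this was fixed where only the pseudocount, the low-count rule or the libraries changed. The clock genes were chosen with this contrast known, so the counts of them that pass are a description and no test. The number of clock genes passing, 2 with limma-trend, stayed at 2 or 3 with other pseudocounts, the stricter low-count rule, the 3 other scalings, robust empirical Bayes or a replicate block. It was 4 with limma-voom, and 0 with no low-count rule, where 26854 genes entered the adjustment. It was also 0 without the 3 libraries in which Ucp1 and Cidea, of brown fat, had reads. It ran from 0 to 2 with each library left out. Over all genes, 65 passed. The count was 131 with limma-voom, 0 with no low-count rule (also 0 of the 66 other clock pathway genes), 0 with those 3 libraries left out (also 0 of the pathway genes) and 0 to 36 with each library left out, against 55 to 72 with the remaining alternatives but the replicate block. Of the other clock pathway genes 6 passed, and 0 to 4 with each library left out. With the replicate block 23 genes passed over all genes and 2 of the pathway genes (Alas1 and Nfil3). The replicate numbers are not known to pair libraries: same-numbered libraries had correlations of -0.04, 0.05 and -0.01 between their deviations from the group means, and libraries did not all correlate best with their own number, so a call lost under the block is not a weaker effect. No scaling moved the median log2 fold change of all genes, 0.01, by over 0.1. Npas2, at 5 to 20 reads per PS-MP library, is the gene whose size depth limits most.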
